A study of Homo sapiens with 4 samples.

Results

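Acetylation of lysine 27 on histone H3 (H3K27ac) was called at 38626 peaks in untreated K562 cells, and 3578 of these (9.26%) were distal and found only without daunorubicin. A peak was placed in this class if no base of it was covered by a peak of the daunorubicin library and if it lay more than 1 kb from both annotated ends of every gene on hg38. The class therefore holds peaks inside gene bodies and between genes, and its members were chosen from the called peaks of both libraries, so their absence from the daunorubicin list is a description and not a finding. K562 is a human cell line established from chronic myeloid leukaemia in blast crisis, which carries the BCR-ABL1 fusion, whereas the series concerned drug resistance in acute myeloid leukaemia. One H3K27ac library came from cells exposed to daunorubicin at 1 uM during 18 h and 1 from cells left without the drug, and each condition had 1 input library made without an antibody. No condition had a second library, so no difference below has a replicate check and none carries a p-value.

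Active enhancers and promoters carry H3K27ac, which the acetyltransferases p300 and CBP deposit and histone deacetylases remove. Peaks away from gene ends are often enhancers, elements that raise transcription of a gene at a distance and that are much more specific to a cell type than promoters are. In erythroid cells such elements are bound by GATA1 and TAL1 with their cofactors, among them the corepressor ETO2, the product of CBFA2T3. Daunorubicin, an anthracycline, inserts itself between DNA bases and traps topoisomerase II on DNA.

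The daunorubicin list was longer, with 65118 peaks, a ratio of 1.69, and its distal peaks with no untreated counterpart numbered 26414, or 7.38 for each distal peak called only without the drug. The lists hold no read counts. Sequencing depth is therefore unknown, and a deeper library can yield more called peaks. The size of the class moved with the choice of peaks: 8078 with equal numbers of top-scoring peaks from each list, and 1038 where both lists were held to a score of at least 43, the median of the untreated list. The labelled cell line was checked at gene ends: 8 of 9 erythroid genes had an untreated peak within 1 kb of an end and all 9 a daunorubicin peak, against 4 and 5 of 12 genes that mark lymphoid, hepatocyte, epithelial or neuronal cells. The erythroid gene without an untreated peak was HBG2, which neighbours its near-identical copy HBG1.

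A small set of members coincided with an annotated transcript start inside a longer gene, and the bases before these starts are shown first. These windows are not the members' own sequence: 9 of the 15 lay wholly inside the member, and at SLC29A1 141 of the 250 bases did. RefSeq start sites fell inside 15 of the 3578 peaks (0.42%, 95% Wilson interval 0.25 to 0.69), 13 of protein-coding genes and 2 of long non-coding RNAs. The share was 0.39% (0.33 to 0.48) of the distal peaks called only with daunorubicin and 3.52% (3.28 to 3.78) of the distal untreated peaks that were shared, so few of either unshared class were internal promoters. The 250 bases before 5 of these starts follow, from RefSeq on GRCh38.p14, read 5′ to 3′ on the strand of the gene. They are the starts in the 4 members of highest score and that of DUSP9, which lies in a run of members with no daunorubicin peak between them. Capitals mark matches on either strand to GGGCGG (a motif of the SP and KLF families) at SLC29A1, PIK3CD and DUSP9, to the interferon-stimulated response element (GAAA, any 2 bases, GAAA) at RSAD2 and to TGTGGT (RUNX) at ADARB1.
SLC29A1 (chr6:44223345-44223594, + strand): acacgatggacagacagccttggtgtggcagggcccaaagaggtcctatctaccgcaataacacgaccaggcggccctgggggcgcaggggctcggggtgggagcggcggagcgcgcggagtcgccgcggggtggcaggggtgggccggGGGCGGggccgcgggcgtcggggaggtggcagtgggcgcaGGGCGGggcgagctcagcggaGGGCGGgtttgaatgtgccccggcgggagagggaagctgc
PIK3CD (chr1:9689294-9689543, + strand): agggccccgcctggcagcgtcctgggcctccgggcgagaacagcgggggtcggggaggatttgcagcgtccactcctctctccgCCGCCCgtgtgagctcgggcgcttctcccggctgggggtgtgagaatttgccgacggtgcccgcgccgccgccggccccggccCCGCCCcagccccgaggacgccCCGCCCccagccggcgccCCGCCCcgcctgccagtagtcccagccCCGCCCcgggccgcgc
RSAD2 (chr2:6877527-6877776, + strand): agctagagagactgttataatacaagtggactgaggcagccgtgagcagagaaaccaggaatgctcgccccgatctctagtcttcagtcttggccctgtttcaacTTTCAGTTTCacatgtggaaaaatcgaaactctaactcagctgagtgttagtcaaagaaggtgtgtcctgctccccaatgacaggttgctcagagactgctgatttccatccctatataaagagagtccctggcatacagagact
ADARB1 (chr21:45152280-45152529, + strand): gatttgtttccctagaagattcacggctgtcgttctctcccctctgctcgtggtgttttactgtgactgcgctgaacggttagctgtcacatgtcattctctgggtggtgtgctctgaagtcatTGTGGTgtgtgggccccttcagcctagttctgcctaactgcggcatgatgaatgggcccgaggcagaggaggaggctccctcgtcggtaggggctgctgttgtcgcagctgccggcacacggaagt
DUSP9 (chrX:153646953-153647202, + strand): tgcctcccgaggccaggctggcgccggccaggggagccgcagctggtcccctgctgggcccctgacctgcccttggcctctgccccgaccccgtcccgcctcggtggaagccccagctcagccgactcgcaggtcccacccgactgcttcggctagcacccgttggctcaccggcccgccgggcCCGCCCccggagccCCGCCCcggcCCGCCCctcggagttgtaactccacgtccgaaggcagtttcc

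These starts were mostly rich in G and C. Over the 15 windows the median GC content was 72.0% (46.8 to 85.2) and 13 of 15 exceeded 58.0%, the median of 34943 windows of the same length before annotated starts. The median number of CG dinucleotides was 24 against 11. GGGCGG was present in 9 of 15 windows, against 42.5% of all windows. AGATAA or TGATAA, the GATA motifs, were found in 1, TGTGGT in 2, CACGTG (an E-box) in 1 and a CTCF core (CCNC and AGNGG with any 1 base between) in 1, against 9.19%, 6.67%, 10.99%, 6.32% and 6.25% of all windows. None of the 15 held TGANTCA (the AP-1 site), the NF-E2 site (TGANTCA preceded by TGC, so contained in the former count) or CCGGAAG (an ETS site), which 6.59%, 0.34% and 8.48% of all windows held. The response element in the RSAD2 window, present in 3.02% of all windows, was searched for after RSAD2 had been seen among the genes. A match describes letters only. The windows compared were those before annotated starts with or without a peak. The values therefore do not set these members apart from other marked starts.

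SLC29A1 encodes the equilibrative nucleoside transporter ENT1, which takes up cytarabine. Its member (chromosome 6, 44223454 to 44223926) scored 132 without daunorubicin, and the nearest daunorubicin peak, a shared one of score 115, began 1742 bp away. The start inside it lay 3980 bp downstream of the first annotated base of the gene. PIK3CD, the leukocyte PI3-kinase catalytic subunit p110 delta, had a member of 983 bp and score 65 at a start 62286 bp into the gene, and a shared daunorubicin peak of score 151 lay 1041 bp from it. At RSAD2, the interferon-induced antiviral enzyme viperin, the member scored 40 and the nearest daunorubicin peak, of score 74, was 1814 bp away. ADARB1, an RNA-editing deaminase, had a member of score 34 that was 12560 bp from the nearest daunorubicin peak. The DUSP9 member, at a MAP kinase phosphatase gene, scored 29 and stood 28092 bp from one. These distances run from the edge of the member, and they were under 2 kb for 3 of the 5 members.

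The members were narrow and of low score. Their median width was 347 bp (quartiles 268 and 477), against 675 bp (420 and 1056) for the 20754 shared distal untreated peaks, and 434 bp (288 and 706) for distal peaks called only with daunorubicin. The narrowest peaks of the untreated list were 239 bp wide, and 14.98% of the members had that width against 2.997% of the shared distal peaks. Only 63 members (1.76%) were at least 1 kb wide, compared with 28.3% of the shared distal peaks. Together they covered 1.45 Mb, 4.03% of the length marked in untreated cells. The score, a value the authors' caller gave each peak and which is used here within the untreated list, had a median of 20 (16 and 27) in the class and 33 (22 and 55) at shared distal peaks. The median member scored above 14.99% of all untreated peaks and the highest, at 148, above 78.8%. A score of at least 43, the median of the untreated list, was reached by 184 members (5.14%, 4.47 to 5.92).

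Low score and absence from the daunorubicin list went together across the whole range. Distal untreated peaks were split by score into 10 groups of similar size. Of those in the lowest group (10 to 16), 36.5% (34.7 to 38.2) were called only without daunorubicin. The share was 14.9% (13.5 to 16.4) at scores of 27 to 30 and 4.11% (3.37 to 5.01) at 46 to 58. In the highest group, from 92, it was 0.25% (0.11 to 0.54), or 6 of 2407 peaks. Width differed within these groups as well. The medians were 351 bp for members and 417 bp for shared peaks in the lowest group, 332 and 522 bp at scores of 23 to 26, and 377 and 862 bp at 46 to 58. Members were narrower in each of the 10 groups. A wide peak meets a criterion of 1 bp of overlap more readily than a narrow one, so width is not independent of how the class was chosen.

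**Figure D1:**
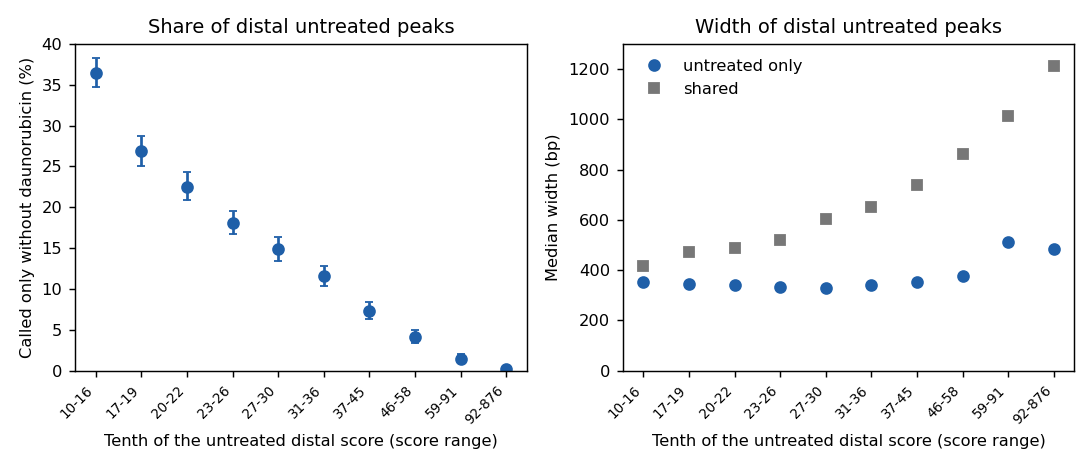
Distal untreated peaks in 10 groups by score, with the share called only without daunorubicin (left, per cent, bars are 95% Wilson intervals) and the median width in bp of those peaks (blue) and of shared peaks (grey, right). The share fell from 36.5% to 0.25%, and the blue points lay below the grey ones in each group.

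Members were often close to a daunorubicin peak. The nearest daunorubicin peak was within 0.5 kb for 672 of them (18.8%, 17.5 to 20.1), within 1 kb for 27.8% (26.3 to 29.3), within 5 kb for 54.8% (53.1 to 56.4) and within 10 kb for 74.3% (72.8 to 75.7). The median gap was 4108 bp, with 61 members between 50 and 100 kb away and 23 farther. The share within 5 kb was 31.0% with equal numbers of top-scoring peaks and 32.7% with both lists held to a score of 43. Distal peaks called only with daunorubicin were farther from the untreated list, with a median gap of 10644 bp and 27.9% (27.3 to 28.4) within 5 kb, but the untreated list is the shorter one and has fewer peaks to be near. Among the members with a daunorubicin peak within 1 kb, that peak was a shared one for 451 of 994 (45.4%, 42.3 to 48.5), and otherwise one called only with daunorubicin. Of all daunorubicin peaks, 53.7% were shared. Daunorubicin peaks stood on both sides within 5 kb for 401 members (11.2%). Neither a daunorubicin peak nor another untreated peak lay within 5 kb of 1497 members (41.8%, 40.2 to 43.5). Score and width did not separate the near from the far, since members within 1 kb and those over 10 kb from any daunorubicin peak had median scores of 20 and 21 and median widths of 331 and 346.5 bp.

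**Figure D2:**
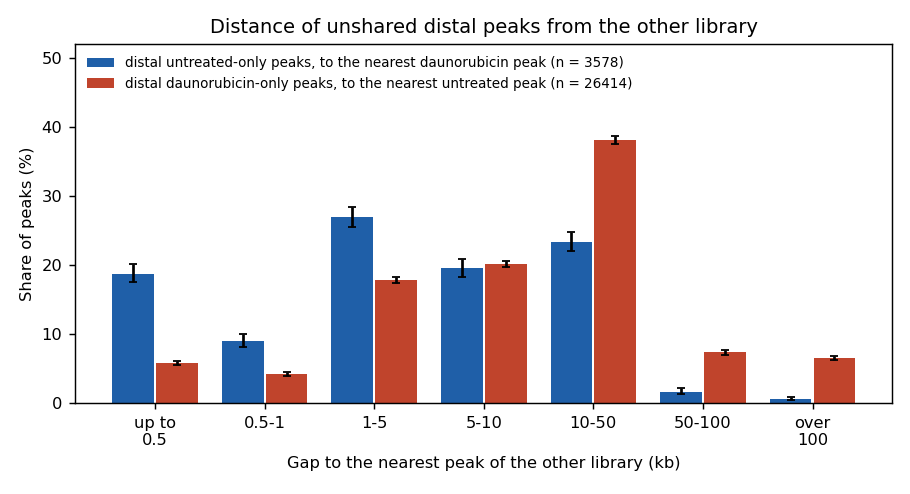
Gap in kb from each distal untreated-only peak to the nearest daunorubicin peak (blue) and from each distal daunorubicin-only peak to the nearest untreated peak (red), as per cent of peaks with 95% Wilson intervals. The blue bars exceed the red up to 5 kb (18.8% against 5.78% within 0.5 kb), and the red exceed the blue beyond 10 kb.

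Around the members, marking was longer with daunorubicin. In the 100 kb centred on a member, with the member itself left out, peaks covered a median of 3356 bp without the drug and 5251 bp with it. The untreated library had the longer marking around 364 members (10.2%, 9.23 to 11.2) and the daunorubicin library around 3139 (87.7%). For distal peaks called only with daunorubicin, each left out of its own window, the untreated library had more around 5.80% (5.52 to 6.09). The daunorubicin library had more around 88.9% of them, near the 87.7% of the members. The libraries were equal around 1408 of those 26414 peaks and around 75 of the 3578 members. In windows of 20 kb the untreated library had the longer marking around 13.0% of the members, and the libraries were equal around 844. These shares moved with the choice of peaks. The share at 100 kb was 33.2% where the daunorubicin list was cut to its top-scoring peaks, as many as in the whole untreated list. That cut also enlarged the class to 8078 peaks, so list length and membership changed together.

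Gene bodies held 2684 of the members (75.01%, 73.6 to 76.4), and 894 were intergenic. Shared distal peaks had 69.4% (68.7 to 70.0) in gene bodies and distal peaks called only with daunorubicin 69.2% (68.6 to 69.7). Members were of low score, and within groups of like score their difference from shared distal peaks varied. It was 77.5% against 75.4% at scores of 10 to 16 and 79.4% against 73.6% at 17 to 19. At 27 to 30 the shares were 70.0% and 69.9%, and at 37 to 45 they were 64.1% and 67.5%. Of all peaks called only without daunorubicin 86.4% (85.3 to 87.4) were distal, close to the 87.6% (87.2 to 88.0) of those called only with it and above the 60.2% (59.7 to 60.7) of shared untreated peaks. Members at gene bodies and between genes had median widths of 345 and 355 bp and median scores of 20 and 21.

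Chromosomes differed in the share of their distal untreated peaks that had no daunorubicin counterpart. Over all chromosomes it was 14.7% (14.3 to 15.2). It was highest on chromosome 22, with 105 of 521 peaks (20.2%, 16.9 to 23.8), followed by chromosome 16 with 140 of 791 (17.7%, 15.2 to 20.5) and chromosome 19 with 161 of 921 (17.5%, 15.2 to 20.1), whose intervals overlap each other. It was lowest on chromosome 13, with 44 of 418 (10.5%, 7.94 to 13.8), and then on chromosome 6, with 213 of 1745 (12.2%, 10.8 to 13.8). Among distal untreated peaks of score 30 or less, the shares were 33.6% (28.9 to 38.7) on chromosome 19, 33.2% (27.7 to 39.3) on chromosome 22 and 16.4% (12.1 to 21.9) on chromosome 13. For each distal peak called only with daunorubicin there were 0.26 members on chromosome 19 and 0.24 on chromosome 22, against 0.14 over all. Chromosomes 19 and 22 carried 1451 and 451 protein-coding genes, chromosome 13 carried 338. The part of gene density, base composition or copy number in these shares was not tested.

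**Figure D3:**
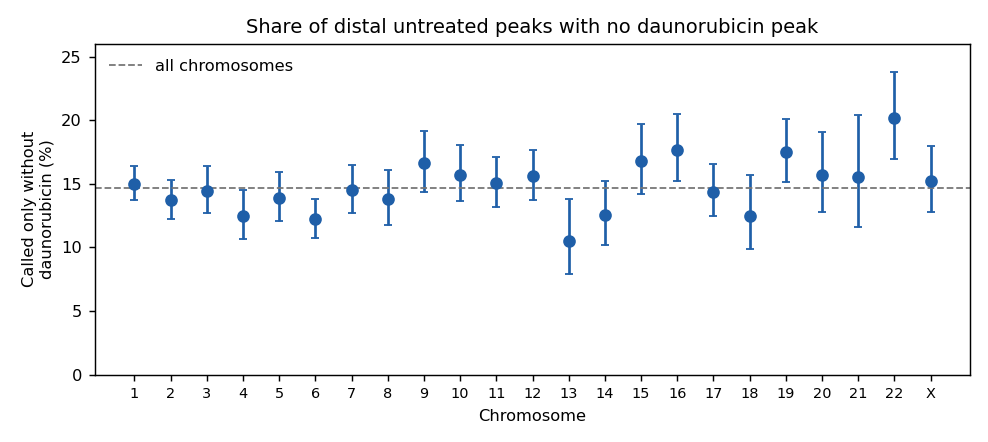
Share of distal untreated peaks called only without daunorubicin (per cent, with 95% Wilson intervals) on each chromosome. The dashed line is the share over all chromosomes, 14.7%, which the intervals of chromosomes 16, 19 and 22 lie above and those of chromosomes 4, 6 and 13 lie below.

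The 20 highest-scoring members scored from 70 to 148, and 13 of them lay in a protein-coding gene. The first, of 421 bp, was in R3HDM4 (chromosome 19, 911588 to 912008, score 148), 822 bp from a daunorubicin peak of score 27 and 1211 bp from the nearest gene end. The second lay between genes, 18125 bp from BAHCC1, which encodes a chromatin protein (chromosome 17, 81484456 to 81484814, score 134), and 2695 bp from a daunorubicin peak of score 63. After the SLC29A1 member came one in ADAM11 (chromosome 17, 44775195 to 44775687), which scored 112 and was 299 bp from a daunorubicin peak of score 36. These 4 all had a daunorubicin peak within 3 kb.

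The next members of the 20 ranged from isolated ones to ones beside a daunorubicin peak. RASD2, which encodes a RAS-like GTPase, held a member of score 106 (chromosome 22, 35539835 to 35540448) whose nearest daunorubicin peak was 17294 bp away and whose nearest untreated peak was 91355 bp away. ADGRD1, an adhesion G protein-coupled receptor gene, held one of score 87 (chromosome 12, 131121985 to 131122363) with no other peak of either library in its 100 kb and a gap of 106824 bp to the nearest daunorubicin peak. NOS3, endothelial nitric oxide synthase, had a member of score 91 beside a daunorubicin peak of score 158 at 1391 bp. EML2, a microtubule-binding protein gene, had one of score 90 with a gap of 235 bp, and LRRC32, which encodes the TGF-beta docking protein GARP, lay 2239 bp from one of score 80. RAP1GAP, a GTPase activator of RAP1, held one of score 77 and GRK1, a G protein-coupled receptor kinase gene, one of score 71 that was 31706 bp from any daunorubicin peak. Of the 20, 5 were within 1 kb of a daunorubicin peak and 8 were more than 10 kb from one. In the surrounding 100 kb, other marking was longer without daunorubicin at 5, longer with it at 14 and absent from both at 1.

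Among members at or above the class median score, the one farthest from any daunorubicin peak lay in ASTN1, a neuronal adhesion gene (chromosome 1, 176879392 to 176880461). It was 1070 bp wide, scored 39 and had a gap of 526199 bp. Next were members in the non-coding genes LINC02141 (score 26, 359664 bp) and LINC02027 (score 45, 285214 bp). PRDM16, a zinc finger factor that maintains haematopoietic stem cells, held one of 767 bp and score 26 at a gap of 282338 bp, and RBFOX3, a neuronal splicing factor gene, one of score 33 at 229919 bp. None of these 5 had another peak of either library within its 100 kb.

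In protein-coding genes, 1857 of 20050 (9.26%) had a member in the body, 1462 of them 1, 283 of them 2 and 112 of them 3 or more. The corresponding share for distal peaks called only with daunorubicin was 30.1%. Genes with a member were long, with a median of 88.4 kb against 24.1 kb for all protein-coding genes and 71.6 kb for genes holding a distal peak called only with daunorubicin. Of these genes 79.97% had an annotated end marked under both conditions, against 57.6% of all protein-coding genes, while 4.25% had one marked only with daunorubicin and 0.65% only without. So the genes whose bodies held these peaks mostly had ends marked under both conditions. Distal peaks called only with daunorubicin outnumbered the members in 966 of the 1857 bodies (52.02%), equalled them in 344 and were fewer in 547, with none at all in 484. These bodies were chosen for holding a member, which favours the members in this count. Over the bodies of genes of all biotypes there were 18274 distal peaks called only with daunorubicin and 2684 members.

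The body with the most members was that of ARHGAP6, a GTPase activator gene of 528377 bp on chromosome X, which held 7 beside 17 distal peaks called only with daunorubicin and 16 shared ones. ZNF664-RFLNA, a read-through gene, also held 7, against 5 called only with daunorubicin. ABHD2, a lipid hydrolase gene, held 6 against 6. JARID2, a cofactor of the Polycomb complex PRC2, held 5 against 16, GSE1, a subunit of a histone deacetylase complex, 5 against 12, and THRB, a thyroid hormone receptor, 5 against 14. In BCR and GRAMD4 the balance was the other way, at 5 against 4 and 5 against 0. TTC28 (5 against 17) and SMYD3 (5 against 22) completed the 10, where genes with 5 were ranked by the summed score of their members. STIM1 (5 against 13) and DPF3 (5 against 7) also had 5.

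GRAMD4, which encodes a mitochondrial protein linked to apoptosis, had the fewest other distal peaks in its body among these genes (chromosome 22, 46575744 to 46682756). The 5 inside it scored 22, 19, 15, 38 and 25 in order along the chromosome, and 4 of them, from 46612588 to 46634246, formed a run with no daunorubicin peak between. A further member of score 100 lay 11413 bp below the gene. Within the gene and 50 kb on either side the untreated library had 10 peaks covering 7394 bp and the daunorubicin library 5 covering 4174 bp. Such runs were short elsewhere. On the assembled chromosomes 3062 members stood singly between daunorubicin peaks, and 502 fell in 239 runs of 2 or more, of which 21 held 3 or more and 3 held 4. The other 2 runs of 4 were in MAD1L1, a spindle checkpoint gene (chromosome 7, 1902064 to 1958824, scores 15 to 23), and in an intergenic stretch of chromosome 6 (51299062 to 51363858, scores 15 to 36). BCR, CCDC88C, KCNN1 and TJP3 were among the genes with runs of 3.

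**Figure D4:**
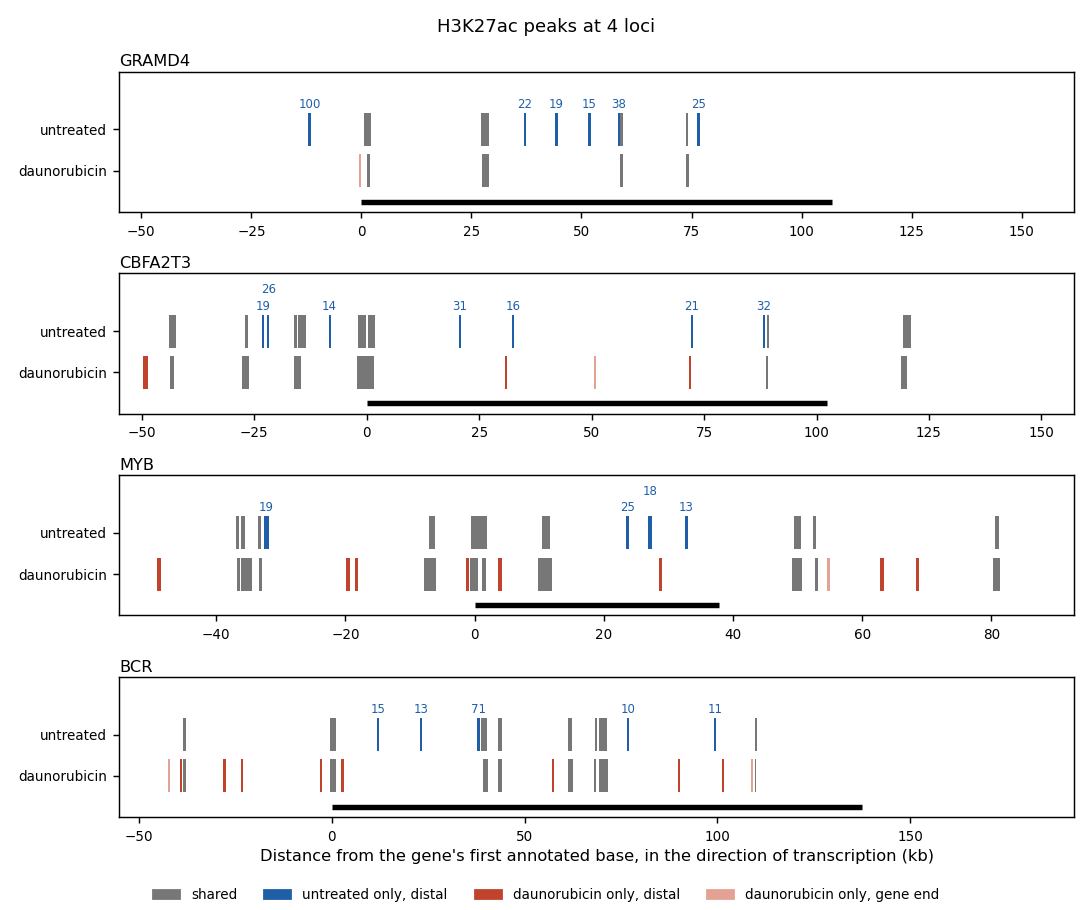
Peaks of each library at GRAMD4, CBFA2T3, MYB and BCR against distance in kb from the gene's first annotated base in the direction of transcription, with the gene as a black bar. Shared peaks are grey, distal untreated-only peaks are blue with their scores, and peaks called only with daunorubicin are red (distal) or pale red (gene end). GRAMD4 has 6 blue peaks and no distal red one, and CBFA2T3 has 7 blue ones.

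Within 50 kb of an annotated end, 4797 of 20050 protein-coding genes (23.9%) had a member, and 66.8% had a distal peak called only with daunorubicin. Of the genes with a member, 1132 had 2 or more, 57 had 4 or more and 9 had 5 or more. The share was 30.8% (29.99 to 31.7) of the genes with an end marked in the untreated library and 14.3% (13.5 to 15.02) of the others. Members outnumbered distal peaks called only with daunorubicin at 985 genes (4.91%). The share of genes with a member was 40.1% with equal numbers of top-scoring peaks and 9.21% with both lists held to a score of 43, so it moves with the lists. Genes of 26 lists were then read against these figures, 379 genes in all, of which 80.2% had an end marked without daunorubicin against 58.4% of all protein-coding genes. A member lay within 50 kb of 134 of the 379 (35.4%). The share was above 23.9% in 17 lists and below it in 9, and in all 26 fewer genes had a member than had a distal peak called only with daunorubicin. The median number of members per gene was 0 over all protein-coding genes and in 19 lists, 0.5 in 2 and 1 in 5. Neighbouring genes of a list can share a peak. Members inside a long gene but over 50 kb from both its ends are left out of these counts, such as the 5 in THRB and the 3 in ETV6. Each list was also set against the background of each of 8 alternative ways of defining the class. Of the 26 lists, 9 were above it in every case: erythroid transcription factors, erythropoietin signalling, BCR-ABL1 and adaptors, histone acetylation, NF-kB, apoptosis, myeloid factors, nuclear receptors and Notch and Wnt. Stem and progenitor factors were below it in every case, but in places by little. Their shares were 45.5% against 45.7% with a reciprocal overlap of 50%, and 9.09% against 9.21% with a score of 43. The interval of their main share (5.14 to 47.7) included 23.9%, and no list had an interval wholly below it. The other 16 lists changed side under at least 1 alternative. The alternatives draw on the same peak lists, and removing input peaks or limiting the chromosomes left every list count unchanged. They are therefore not separate checks. Of the 9 above, myeloid factors (23.7 to 76.3), nuclear receptors (17.7 to 64.5) and Notch and Wnt (19.8 to 64.3) had intervals including 23.9%. With a score of 43, erythropoietin signalling stood at 10% against 9.21%. No list was set against the 30.8% found for genes with a marked end.

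**Figure D5:**
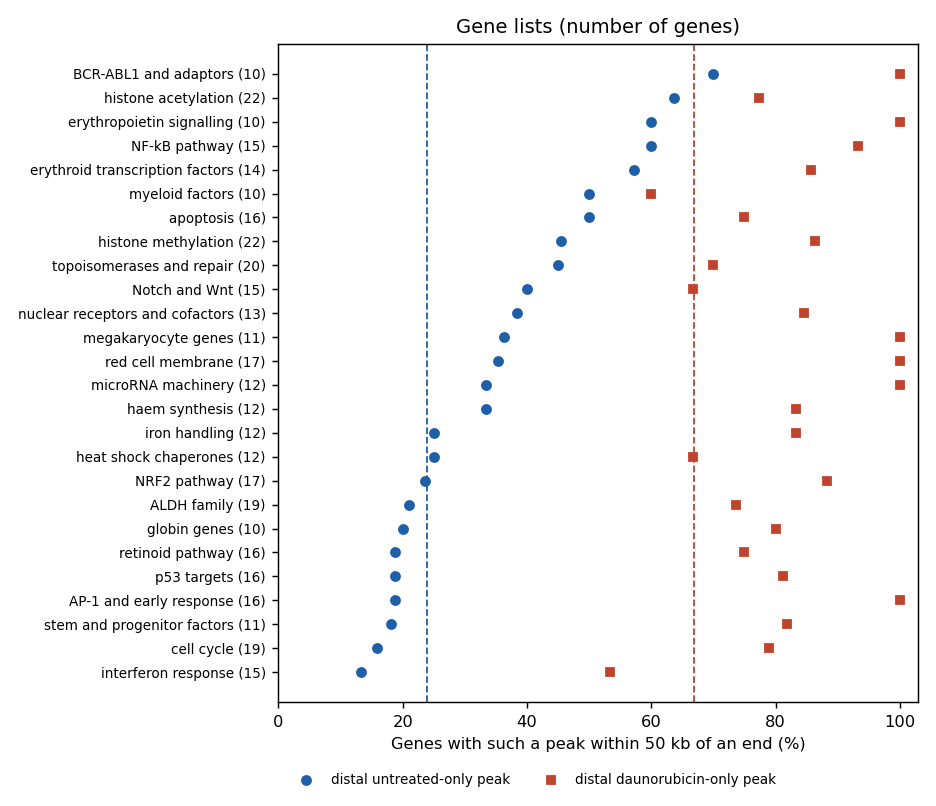
Per cent of the genes of each list with a distal untreated-only peak (blue) or a distal daunorubicin-only peak (red) within 50 kb of an end, with the number of genes in parentheses. Dashed lines are the shares of all protein-coding genes, 23.9% and 66.8%. Blue points run from 13.3% in the interferon response to 70.0% in BCR-ABL1 and its adaptors, and each lies left of its red point.

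Of 14 erythroid transcription factor genes, 8 had a member (57.1%) and 12 a distal peak called only with daunorubicin (85.7%). Over all protein-coding genes these shares were 23.9% and 66.8%. CBFA2T3 had 7 within 50 kb of its ends, the highest number of any protein-coding gene, against 3 called only with daunorubicin. The 4 members inside CBFA2T3 (chromosome 16, 88874858 to 88977207) scored 32, 21, 16 and 31 along the chromosome, and the 3 above its higher end, from which the gene is transcribed, scored 14, 26 and 19 at distances of 8.2, 21.9 and 22.8 kb. Daunorubicin peaks were 321 and 228 bp from the first pair and from 1407 to 9754 bp from the other 5. Counting the gene and 50 kb on either side, marked length was nearly the same in both libraries, 12617 bp without the drug and 11676 bp with it. Thus the number of separate untreated peaks was larger there (15 against 10) while the marked length differed little.

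MYB, the progenitor transcription factor whose level falls as erythroid cells mature, had 4 members against 8 distal peaks called only with daunorubicin. The 3 inside the gene (chromosome 6, 135204780 to 135214288) scored 25, 18 and 13, with daunorubicin peaks 4829, 1174 and 3650 bp away, and the other, of score 19, lay 31.9 kb below the gene. Marked length at MYB was 10242 bp without and 14704 bp with daunorubicin. GFI1B, a repressor needed in erythroid and megakaryocytic cells, had 2 members, of score 20 and 11, the second 57 bp from a daunorubicin peak. ZBTB7A, a repressor of fetal globin, had 2, of score 21 and 14, and no distal peak called only with daunorubicin. GATA1, ZFPM1, NFE2 and IKZF1 had 1 member each. The GATA1 member lay 14977 bp below the gene (chromosome X, 48770908 to 48771613, score 20), and marked length there was 7433 bp against 7520 bp. GATA2, TAL1, LMO2, LDB1, KLF1 and BCL11A had none, and the median number over all protein-coding genes was 0.

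Of all protein-coding genes, 23.9% had a member within 50 kb. The globin genes had a member at 2 of 10, and it was the same weak peak of score 13 near HBB and HBD. All 10 had a member with equal numbers of top-scoring peaks, 6 with a reciprocal overlap of 50% and 0 with both lists held to a score of 43, so this count rested on how the lists were compared. Haem synthesis genes had one at 4 of 12, among them ABCB10, a mitochondrial transporter, with 2, and ALAD, UROS and SLC25A38 with 1 each. Iron genes had one at 3 of 12, led by the metal transporter SLC11A2 with 3, and TFRC, the transferrin receptor, had 1. Red cell membrane genes had one at 6 of 17, with 2 each at EPB41 (protein 4.1) and ADD1 (an adducin). At erythropoietin signalling genes it was 6 of 10, with 4 members at the docking protein gene GAB2 and the same 2 shared by the neighbours STAT5A and STAT5B. GAB2 had 11 distal peaks called only with daunorubicin, with 23773 bp marked without the drug and 44340 bp with it.

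BCR-ABL1 and its adaptor genes had a member at 7 of 10 and a distal peak called only with daunorubicin at 10 of 10, with GAB2 and STAT5A also counted in the list before. The shares over all protein-coding genes were 23.9% and 66.8%. BCR, whose promoter drives the fusion in K562, had 5 members inside the gene (chromosome 22, 23180509 to 23318037), of score 15, 13, 71, 10 and 11. The strong one (23218210 to 23218964) lay 343 bp from another untreated peak and 814 bp from a daunorubicin peak of score 151. ABL1 had 3 inside the gene, all of score 14 or 15, against 8 distal peaks called only with daunorubicin, and marked lengths of 9576 bp without the drug and 16636 bp with it. CRKL, SOS1 and CBL, an adaptor, a RAS exchange factor and a ubiquitin ligase, had 1 member each, and CRK, GRB2 and SHC1 had none.

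Genes that write, read or remove histone acetylation had a member at 14 of 22 (63.6%), in most cases 1. The share was 23.9% of all protein-coding genes and 30.8% of those with an end marked in the untreated library. KAT7, the acetyltransferase HBO1, had 4, of score 40, 29, 10 and 28, against 6 distal peaks called only with daunorubicin. HDAC7, a class IIa deacetylase, had 2. BRD2, a bromodomain reader of acetylated histones, had 1 of score 51 inside the gene (chromosome 6, 32972610 to 32972937), 746 bp from the daunorubicin peak there, and no distal peak called only with daunorubicin. CREBBP, which encodes CBP, had 1 against 4, and EP300, which encodes p300, none against 1. Histone methylation genes had one at 10 of 22, with 2 each at KMT2C, SETD1A, KDM1A, KDM2B and KDM4B.

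Of 20 topoisomerase and repair genes 9 had a member. TOP2A and TOP2B encode the enzymes that anthracyclines poison, and TOP2A had 1, of score 59, while TOP2B had none. TOP1 had 2, and CHEK2 and BRCA2 had 1 each. Apoptosis genes had one at 8 of 16, with 2 each at BCL2L1, which encodes the survival factor BCL-XL, and at CFLAR, the caspase 8 inhibitor cFLIP, where 13113 bp were marked without the drug and 16723 bp with it. NF-kB pathway genes had one at 9 of 15, among them NFKB2 (1 of score 53), NFKBIB and TNFAIP3 (2 each). The peak at NFKBIE and HSP90AB1 was the SLC29A1 member of score 132, so 1 peak served genes of separate lists. Myeloid factors had one at 5 of 10, with 2 at the receptor gene CSF3R and 1 each at SPI1 and CEBPB.

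Stress and early response lists were on either side of the background, depending on the alternative. AP-1 and early response genes had a member at 3 of 16 (FOS, KLF2 and KLF6), p53 targets at 3 of 16 (MDM2, SESN2 and PLK3), the interferon response at 2 of 15 (IRF1 with 2 and IRF9 with 1) and the NRF2 pathway at 4 of 17 (KEAP1, SLC7A11, TALDO1 and MAFF). With equal numbers of top-scoring peaks AP-1 genes had one at 8 of 16 and p53 targets at 7 of 16, above the 40.1% of all genes then. With both lists held to a score of 43 the interferon response had one at 5 of 15 and AP-1 and p53 genes at 2 of 16 each, above 9.21%. Most peaks counted in that setting overlap a daunorubicin peak of lower score and are shared in the main class. Cell cycle genes had one at 3 of 19, with 2 at CDKN1B, which encodes p27. Stem and progenitor factors had one within 50 kb of an end at 2 of 11, RUNX1 and KIT. Counted in gene bodies it was 3 of 11, with 3 members in ETV6, against 9.26% of all protein-coding genes. These genes, RUNX1, ETV6 and KIT, are 261502, 245704 and 82759 bp long, against a median of 24.1 kb for all protein-coding genes. Gene length was not matched in this count. Megakaryocyte genes (4 of 11), microRNA machinery (4 of 12), nuclear receptors and cofactors (5 of 13) and Notch and Wnt genes (6 of 15) were above 23.9%, while heat shock chaperones (3 of 12) were near it and retinoid genes (3 of 16) below.

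In the ALDH family, which oxidises aldehydes and was the subject of the series, 4 of 19 genes had a member (21.1%) and 14 a distal peak called only with daunorubicin (73.7%). Of all protein-coding genes 23.9% and 66.8% had them, so the share with a member was near that background. ALDH2, the mitochondrial acetaldehyde dehydrogenase, had 3 of score 11, 16 and 12, none closer than 5214 bp to a daunorubicin peak, with marked lengths of 8985 bp and 8692 bp. ALDH5A1, ALDH8A1 and ALDH18A1 had 1 each, of score 14, 18 and 22. ALDH1A1, ALDH1A2, ALDH1A3, ALDH1B1, ALDH1L1 and ALDH1L2 had none.

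At the limits of the class, the member nearest a gene end lay just over 1 kb from it, in JAK1 (score 27), and the peak just outside was 995 bp from an end, at FLYWCH1 (score 20). The members nearest a daunorubicin peak, such as one in CPEB4 (score 20), adjoined it with no base between, and 133 members (3.72%) were within 100 bp of one. Among shared distal peaks 267 (1.29%) overlapped by at most 100 bp, the least by 1 bp at C4BPA (score 17). The untreated-only peak of highest score, 246, lies inside DGCR8 but is outside the class because a gene end is 202 bp away.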

How the data were processed

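Data were peak lists from ChIP-seq of K562 cells, 1 list for each of 4 libraries. The submitters' processing notes name MACS2 2.1.1, Bowtie2 2.3.4.3 and deepTools 3.2.1, and both hg19 and hg38. No source used here states parameters, thresholds, use of the inputs or duplicate handling, nor the formula of the score. Each peak has 1 score, as deposited by the authors, and it was compared only within a list, except where equal numbers of top-scoring peaks or a common minimum score were tried. The score of a neighbouring daunorubicin peak is that list's own. Sequence names in the lists were those of hg38.

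Genes (59716 of all biotypes, 20050 protein-coding) came from RefSeq on GRCh38.p14, the same build, and 14 members lay on sequences with no gene in that table. Coordinates count from 1. A gene end counted as marked where a peak came within 1 kb of it. A gap is the difference between the facing end coordinates. Intervals of shares are 95% Wilson intervals for counting error alone, with peaks taken as independent. Promoter windows were 250 bases before RefSeq start sites. No genome sequence was used, so base content and motifs of the other members were not analysed here. Members and lists were chosen with earlier results of these data known. Named regions were the 20 highest-scoring members, the 5 farthest from any daunorubicin peak at or above the class median score, the 10 gene bodies with the most members (ties by summed score), the longest runs and up to 4 genes a list; other list genes were named to account for a list, and the starts shown and the other genes with runs, after their values were seen. Overlap functions were tested on simulated lists of 8998 and 6000 peaks against bedtools 2.31.1. Analyses used Python 3.11.15, numpy 2.4.6 and pandas 2.3.3. The 11 alternatives are in the closing section.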

Additional observations from a re-analysis of the deposited data

How the results depend on the processing

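Each of 8 results was recomputed under the alternatives, 67 values in all, of which 35 stayed within 1.5 times a count or within the interval of a share or median and 32 did not. Removing input peaks or keeping chromosomes 1 to 22 and X moved none. With a score of at least 43 in both lists there were 1038 members, 67.0% of untreated-only peaks were distal, 70.7% of members lay in gene bodies and 32.7% within 5 kb of a daunorubicin peak, the median width was 598 bp and the median score 51, 1846 genes had a member within 50 kb, and untreated marking was longer around 20.2%. With equal numbers of top-scoring peaks these were 8078 members, 84.7% distal, 31.0% within 5 kb, 401 bp, a score of 22, 8031 genes and 33.2%. With a reciprocal overlap of 50% they were 11022 members, 81.9% distal, 72.4% in gene bodies, 85.3% within 5 kb, 405 bp, a score of 23, 9170 genes and 4.55%. With a gap of 1 kb counted as shared, 37.4% of 2584 members were within 5 kb, the median width was 354.5 bp and untreated marking was longer around 11.96%. With 2.5 kb as the distal limit 76.0% were distal. With ends of protein-coding genes only 92.7% were distal and 64.6% lay in gene bodies. Windows of 10 and 100 kb gave 1250 and 7424 genes, and windows of 20 kb around members gave 13.0%. All 20 named peaks of highest score stayed in the class under 6 of 8 alternatives, 15 with a gap of 1 kb and 17 with 2.5 kb. Apart from input removal, those 6 could not take out peaks of such score on these chromosomes. They drop daunorubicin peaks or gene ends, or ask for more overlap, so staying in the class under them is no sign of stability. The shares of genes with a member were 9.21%, 40.1% and 45.7% under the first 3 alternatives above, so list counts move with them. No paired analysis was possible because each group had 1 library.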

Other observations

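Some genes held members and no distal peak called only with daunorubicin in the body. Besides GRAMD4, TJP3, a tight junction scaffold gene (chromosome 19, 3708384 to 3750813), held 4, of score 28, 34, 18 and 23, and neither library had a peak at its ends. In TJP3 and 50 kb on either side, marked length was 7058 bp without daunorubicin and 4700 bp with it. KCNN1, a calcium-activated potassium channel gene, held 3 of score 24, 19 and 60, PRDM15, a zinc finger gene, 3, and KANSL3, a subunit of the NSL acetyltransferase complex, 3. The members in KCNN1 lay from 5429 to 21136 bp from a daunorubicin peak.

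A peak of either input library overlapped 2 of the 3578 members (0.0559%, 95% Wilson interval 0.0153 to 0.204). For shared distal untreated peaks the number was 24 of 20754 (0.116%, 0.0777 to 0.172).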
